A study of Homo sapiens with 42 samples.

Results

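The 10 genes described here encode enzymes that make, lengthen, desaturate and activate long-chain fatty acids: ACLY, ACACA, FASN, ELOVL6, ELOVL5, SCD, FADS1, FADS2, FADS3 and ACSL3. They were taken by name from the gene table, which lists 60606 genes. All 10 were found and all 10 passed the filter on low values, a mean of at least 1 TPM (transcripts per 1000000, a length-scaled share) over the libraries, as did 14426 genes in all.

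The cells were AC16, a human line labelled cardiomyocyte-like, and the readout was polyA-selected RNA from whole cells in 30 libraries, 3 for each of 10 groups. RPL3 belongs to the large subunit of the ribosome, and RPL3L is its paralog of striated muscle. The shScramble group carried a doxycycline-inducible scrambled hairpin and the shRPL3 group a doxycycline-inducible hairpin against RPL3. RPL3L-WT carried that RPL3 hairpin and a wild-type RPL3L construct. The other 7 groups carried the RPL3 hairpin and an RPL3L construct with 1 amino acid change, named by it: G27D, R161W, T189M, P291L, D308N, D308V and R343W. Doxycycline at 1 ug per ml was given to every group, the scrambled control included. Hairpin cells were selected as a population with hygromycin, and construct cells were then sorted by BV421 signal. The labels state induction by doxycycline for the P291L construct. They do not say whether the 3 libraries of a group came from separate cultures, so p-values measure the spread between these libraries, which may be technical. The 12 nuclear libraries of the study were not used here.

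Fatty acid synthesis starts in the cytosol, where ACLY splits citrate to acetyl-CoA, ACACA carboxylates acetyl-CoA to malonyl-CoA, and FASN builds palmitate from both. ELOVL6 lengthens saturated and monounsaturated chains of palmitate size, and ELOVL5 lengthens polyunsaturated chains. SCD puts the first double bond into palmitate and stearate, while FADS2 and FADS1 add double bonds to polyunsaturated chains and FADS3 acts on sphingoid bases. ACSL3 joins fatty acids to coenzyme A for entry into lipids. Most of these genes are textbook targets of SREBP transcription factors, which the sterol-sensing proteins SCAP and INSIG hold in the endoplasmic reticulum. Heart muscle burns fatty acids more than it makes them, and uses this pathway mainly for membrane lipids.

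Positions were read from GENCODE 29 on GRCh38. FADS1 (chr11:61799625-61829318, minus strand), FADS2 (chr11:61792980-61867354, plus strand) and FADS3 (chr11:61873519-61892051, minus strand) are neighbours. SCD lies at chr10:100347124-100364834 on the plus strand. FASN (chr17:82078333-82098332), ACACA (chr17:37084988-37406818) and ACLY (chr17:41866908-41930542) lie on the minus strand of the same chromosome. ELOVL6 (chr4:110045846-110199199, minus strand), ELOVL5 (chr6:53267398-53349179, minus strand) and ACSL3 (chr2:222860934-222944639, plus strand) lie on other chromosomes. Exons of FADS1 and FADS2 share 490 bases on opposite strands, and FADS2 shares 49 exonic bases with FEN1 on its own strand. ACLY and ACSL3 each overlap an annotated antisense gene. Whether the quantification used strand is not given in the sources used here, so reads from these shared stretches may not be told apart. The pseudogene SCDP1 was listed at 0 in every library.

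Promoter windows, 250 bases before to 50 after an annotated start, were available from RefSeq (GRCh38.p14) for 9 of the 10 genes, in 13 windows. The 250 bases upstream are shown for SCD (chr10:100346983-100347232, plus strand), the member with the widest range between groups, for ELOVL5 (chr6:53348951-53349200, minus strand), the member whose window holds an E-box beside NF-Y boxes, and for ELOVL6 (chr4:110198616-110198865, minus strand), the member with the narrowest range. Capitals mark CCAAT or its reverse complement ATTGG, the NF-Y box, and CACGTG, the E-box.
SCD: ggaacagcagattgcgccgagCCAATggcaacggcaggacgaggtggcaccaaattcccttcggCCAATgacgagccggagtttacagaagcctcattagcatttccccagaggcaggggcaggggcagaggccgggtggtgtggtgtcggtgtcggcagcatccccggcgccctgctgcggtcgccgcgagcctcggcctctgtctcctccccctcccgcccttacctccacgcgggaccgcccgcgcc
ELOVL5: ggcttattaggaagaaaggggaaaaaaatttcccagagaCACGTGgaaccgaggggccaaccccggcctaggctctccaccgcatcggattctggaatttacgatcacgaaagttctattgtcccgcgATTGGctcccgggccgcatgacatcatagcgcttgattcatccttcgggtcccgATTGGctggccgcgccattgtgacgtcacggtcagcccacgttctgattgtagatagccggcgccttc
ELOVL6: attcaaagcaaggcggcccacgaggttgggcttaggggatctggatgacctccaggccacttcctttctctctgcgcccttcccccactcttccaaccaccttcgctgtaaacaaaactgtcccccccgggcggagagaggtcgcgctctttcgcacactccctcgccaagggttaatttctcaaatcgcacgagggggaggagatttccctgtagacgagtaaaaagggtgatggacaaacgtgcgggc
SCD has 2 NF-Y boxes in this stretch, ELOVL5 has 2 and 1 E-box, and ELOVL6 has neither. On either strand, CCAAT was found in 9 of the 13 member windows, of which some overlap, and in 34.6% of all 35116 RefSeq windows of 300 bases. CACGTG was found in 1 of the 13, against 7.26% of all windows. GGGCGG, the GC box, was found in 10 of the 13, against 45.0%. TCACNCCAC, written for a sterol-response-like element, was in 1.13% of all windows and in no member window, which says only that these letters are not in these stretches. RefSeq places the start of FADS1 and the further upstream of its FADS2 starts 800 bases apart on opposite strands. That FADS2 start lies inside FADS1, so from these starts the genes are read toward each other.

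TPM keep no read depth, so the depth of each library is unknown and every library sums to 1000000 TPM. The label cardiomyocyte-like was not borne out by defining markers: 7 of 8 cardiomyocyte markers stayed under 1 TPM in every library and TNNI3 reached 1.37 TPM. Fibroblast markers were abundant, with COL1A1 between 583 and 1695 TPM, and all 5 adipocyte markers were under 1 TPM throughout. The summed 7 fibroblast markers ran from 5145 to 5659 TPM in shScramble, 4827 to 5177 in shRPL3, 4744 to 5651 in R161W and 4046 to 4312 in D308N, and from 4004 to 5975 over the other groups. The 5 epithelial markers summed to 234 to 268 TPM in shScramble, 221 to 240.3 in shRPL3, 429 to 446 in P291L (the highest), 364 at the median of R161W and 281 to 304 in D308N, and from 215 to 356 over the other 5 groups. Most of that was KRT18, and EPCAM did not pass 0.398 TPM. Of the 3 epithelial markers that could be tested, 2 were lower in shRPL3 than in shScramble, beside 18.0% of all tested genes lower. All 3 were higher than in shRPL3 in RPL3L-WT, P291L and R161W, 2 in G27D and in T189M, and 1 in D308N. In R343W 1 was lower. Of all tested genes, 5.77% were higher in RPL3L-WT and 8.36% in R161W. Called in either direction were 19.6% in P291L, 17.4% in G27D, 33.9% in T189M and 18.1% in D308N. Of the 7 fibroblast markers, 4 were lower and 1 was higher in shRPL3 than in shScramble, beside 18.0% and 17.2% of all tested genes. Against shRPL3, 5 were lower in R343W (list median -0.99), 5 in D308V (-0.73), 4 in D308N (-0.41) and 4 in G27D (-0.29). The shares of all tested genes lower were 12.4%, 11.1%, 12.4% and 15.0%. In R343W and in G27D 1 fibroblast marker was higher. RPL3L-WT held 3 lower and 2 higher, P291L 2 and 3, T189M 2 and 2, and R161W 0 and 2. Of all tested genes, 36.0%, 19.6%, 33.9% and 25.2% were called there in either direction. The part of either list in the results was not tested. In bulk RNA, fewer cells of a type and less RNA per cell cannot be told apart. The libraries also fell into 2 kinds by the levels of 333 pseudogenes, a split absent from the labels: 6 libraries were of the second kind (RPL3L-WT 1 and 2, T189M 1 and 2, R161W 1, G27D 3) and the other 24 of the first. In all 4 groups that hold both kinds, libraries of the second kind were higher for ACSL3 and ELOVL5 and lower for ACLY, ACACA, FADS1 and FADS3. Values from a fit with the library kind as a term are therefore given as values within kinds. Where both compared groups hold only libraries of the first kind, the term leaves the difference unchanged. Calls added there come from the changed error alone. Library shRPL3 3 held 121 TPM of RPL3L, against 0.0290 and 0.0353 TPM in the other shRPL3 libraries.

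RPL3, the target of the hairpin, stood at 1565, 1534 and 1611 TPM in shScramble and at 539, 499.6 and 569.8 TPM in shRPL3. The knockdown was visible in every library, and RPL3 was lower by -1.55 ± 0.18 on the log2(TPM + 1) scale (SE, limma adjusted p = 6.22e-07). It was also low in RPL3L-WT (445, 439 and 673 TPM). In R161W it stood at 1059, 1686 and 1570.1 TPM, overlapping shScramble, and in T189M at 779.7, 802 and 1246 TPM. The other variants averaged between 569 ± 1.42 TPM (SD, n = 3) in D308V and 730.2 ± 6.62 TPM in R343W. Although both carry the RPL3 hairpin, R161W (1.40 ± 0.18, adjusted p = 7.5e-06) and T189M (0.78 ± 0.18, adjusted p = 0.00272) held more RPL3 than the hairpin alone. Within kinds RPL3 was also higher than in shRPL3 in RPL3L-WT (0.36), P291L (0.33), G27D (0.42), D308N (0.38) and R343W (0.45), with adjusted p between 7.41e-10 (R343W) and 7.24e-07 (RPL3L-WT), while R161W stood at 1.61 and T189M at 1.21. D308V did not pass (0.09, adjusted p = 0.0598). RPL3L averaged from 2463 ± 513 TPM in T189M to 5116 ± 143 TPM in D308N among the construct groups.

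Lowering RPL3 went with lower transcripts for nearly the whole fatty acid synthesis set. In shRPL3 against shScramble, 9 of the 10 members passed the test (limma on log2(TPM + 1), Benjamini-Hochberg adjusted p under 0.05 over all tested genes) and all 9 fell. Of all genes tested, 35.2% passed in either direction and 18.0% were lower. The same count of 9 was reached with the kind term (24.5% of all tested genes lower) and without shRPL3 replicate 3, the library with RPL3L. The members' median log2 difference was -0.87, beside -0.01 over all tested genes. In all 10 members every shRPL3 library lay below every shScramble library, a pattern seen in that direction in 27.7% of all tested genes. Summed over the 10 members, transcripts came to 2129 ± 46.0 TPM in shScramble and 777 ± 35.5 TPM in shRPL3.

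**Figure D1:**
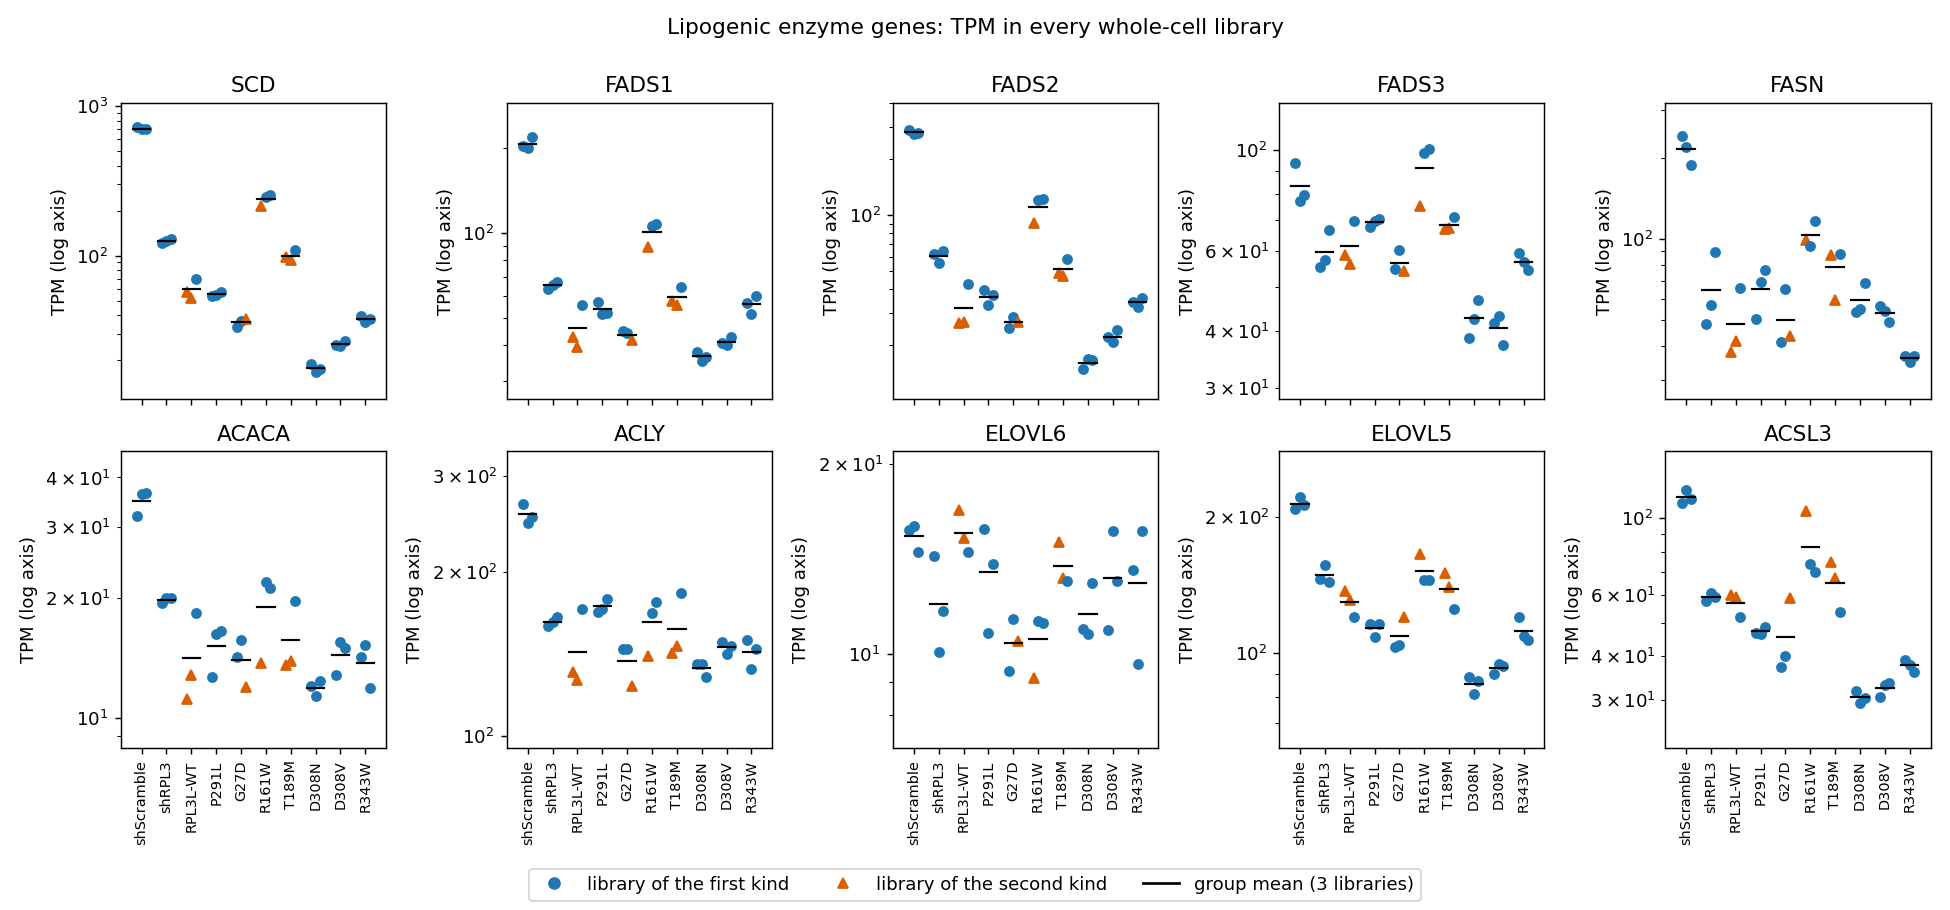
TPM (log axis) of each of the 10 genes in each of the 30 libraries, by group; circles are libraries of the first kind, triangles of the second, and bars are means of 3 libraries. SCD, FADS2, FADS1 and FASN drop furthest from shScramble, SCD from a mean of 707 TPM to 17.6 TPM in D308N, while ELOVL6 stays between 9.14 and 16.9 TPM.

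Among the enzymes that supply and build the chain, ACLY was at 267, 247 and 252 TPM in shScramble and at 159, 162 and 165 TPM in shRPL3. The groups lay well apart, and ACLY fell by 0.65 ± 0.10 on the log2 scale (adjusted p = 2.3e-05). ACACA, present at lower levels, stood at 32.0, 36.4 and 36.5 TPM and then at 19.4, 19.9 and 19.9 TPM, and fell by 0.79 ± 0.17 (adjusted p = 0.00075). FASN stood at 242, 219 and 188 TPM in shScramble and at 48.3, 56.8 and 89.5 TPM in shRPL3. Its libraries were the most scattered of the set, with shRPL3 replicate 3 the highest of its group, and FASN fell by 1.76 ± 0.22 (adjusted p = 1.16e-06). The log2 fall of FASN was thus larger than those of ACLY and ACACA, though the differences between these falls were not tested. The within-library FASN to ACLY ratio of TPM was 0.846 ± 0.087 (SD, n = 3) in shScramble and 0.399 ± 0.126 in shRPL3.

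The elongases moved less. ELOVL5 stood at 208, 222 and 213 TPM in shScramble and at 146, 157 and 144 TPM in shRPL3, with no overlap, and fell by 0.53 ± 0.07 (adjusted p = 6.61e-06). ELOVL6 was the member that did not pass, at 15.7, 16.0 and 14.5 TPM against 14.3, 10.0 and 11.7 TPM. Its difference was -0.34 ± 0.15 (adjusted p = 0.0874). All 3 shRPL3 values lay below the control values, but the highest of them, 14.3 TPM, was next to the lowest control value.

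The desaturases held the largest changes. SCD, the enzyme behind oleate and palmitoleate, stood at 722, 698 and 701 TPM in shScramble and was the most abundant member there. It was at 121, 125 and 129 TPM in shRPL3, a drop in every library, and fell by 2.49 ± 0.08 (adjusted p = 2.98e-16). FADS2, the delta-6 desaturase, was at 288, 272 and 279 TPM and then at 62.3, 55.3 and 64.0 TPM, and fell by 2.19 ± 0.14 (adjusted p = 2.59e-11). Its neighbour FADS1, the delta-5 desaturase, went from 203, 199 and 219.5 TPM to 63.5, 65.2 and 67.0 TPM and fell by 1.65 ± 0.09 (adjusted p = 4.75e-12). FADS3, in the same gene cluster, changed far less: 93.3, 77.2 and 79.7 TPM against 55.2, 57.1 and 66.6 TPM, a fall of 0.48 ± 0.10 (adjusted p = 0.0009). ACSL3, which activates fatty acids, stood at 111, 121 and 114 TPM and then at 57.7, 60.9 and 59.4 TPM, and fell by 0.95 ± 0.14 (adjusted p = 9.81e-06). SCD made up 33.2 ± 0.174% of the members' summed TPM in shScramble and 16.1 ± 0.212% in shRPL3.

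Adding wild-type RPL3L to the hairpin cells did not bring the set back to its control level. Against shScramble, 9 of 10 members were lower in RPL3L-WT, with 34.6% of all tested genes called lower and 46.7% called in either direction. Within kinds it was again 9, beside 29.1%, and 8 with the first kind of library alone. SCD was lower by -3.56 ± 0.08 and FADS2 by -3.13 ± 0.14 (adjusted p = 2.81e-19 and 4.41e-14). For ELOVL6 the difference was 0.01 ± 0.15 (adjusted p = 0.951).

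Against the hairpin alone, 5 of 10 members were lower in RPL3L-WT, where 30.2% of all tested genes were called lower and 36.0% in either direction. The median of all genes was itself shifted by -0.19, and the members' median was -0.30. Within kinds 5 were lower as well, beside 20.1% of all tested genes, while 3 passed without shRPL3 replicate 2, without shRPL3 replicate 3 or without RPL3L-WT replicate 2. SCD stood at 57.5, 52.0 and 69.2 TPM in RPL3L-WT, below all 3 shRPL3 libraries, and was lower by -1.07 ± 0.08 (adjusted p = 1.01e-08; within kinds -0.96 ± 0.07, adjusted p = 2.03e-09). FADS2 was at 26.3, 26.8 and 42.7 TPM and lower by -0.94 ± 0.14 (adjusted p = 3.88e-05). FADS1 was at 42.8, 39.6 and 55.4 TPM and lower by -0.51 ± 0.09 (adjusted p = 0.000326). For both, the highest library was replicate 3, which is of the first kind, and both also passed within kinds, FADS2 at -0.71 ± 0.11 and FADS1 at -0.35 ± 0.07. ACACA (-0.49 ± 0.17, adjusted p = 0.0284) did not pass within kinds (-0.16 ± 0.11, adjusted p = 0.299), and ACSL3 passed with that term (-0.34 ± 0.07, adjusted p = 0.00118, against -0.05 ± 0.14, adjusted p = 0.781, without the term). ELOVL5 was lower by -0.20 ± 0.07 (adjusted p = 0.0424) and by -0.33 ± 0.05 within kinds (adjusted p = 5.49e-05). When libraries were rescaled to a common median ratio, ELOVL5 turned to 0.02 (adjusted p = 0.892) and the calls became 2 higher, FADS3 (0.26, adjusted p = 0.0252) and ELOVL6 (0.57, adjusted p = 0.0130), and 3 lower, SCD (-0.85), FADS1 (-0.29) and FADS2 (-0.72). FASN (38.1, 41.7 and 65.7 TPM) and ACLY (131, 127 and 171 TPM) did not pass in any of these 3 fits. SCD, FADS1 and FADS2 were lower and passed in all 3.

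R161W was the variant with the highest levels of most members. Against RPL3L-WT, 7 of 10 were higher, against 12.6% of all tested genes higher and 16.7% called in either direction, and ELOVL6 was lower (-0.52 ± 0.15, adjusted p = 0.0221; 4.07% of all tested genes were lower). Within kinds the counts were the same, beside 16.1% and 8.87%. After median-ratio rescaling 5 were higher, without ELOVL5 (0.11, adjusted p = 0.539) and ACSL3 (0.39, adjusted p = 0.137). The share of all tested genes called after rescaling is not given here, for this or any other comparison. The members' median difference was 0.53 and that of all genes 0.10. SCD was at 214, 246 and 255 TPM, above every library of the hairpin alone and below every shScramble library. It was higher than RPL3L-WT by 1.99 ± 0.08 (adjusted p = 1.37e-13). FADS2 (90.6, 120.3 and 123 TPM, 1.79 ± 0.14), FADS1 (89.5, 106 and 108 TPM, 1.13 ± 0.09) and FASN (99.3, 94.4 and 117 TPM, 1.11 ± 0.22) were also higher. FADS3, at 75.3, 98.4 and 100.4 TPM, reached the shScramble range. These R161W libraries also held RPL3 near the shScramble level, as given above, and R161W replicate 1, the library of the second kind, had the lowest RPL3, SCD, FADS1, FADS2, FADS3, ACACA, ACLY and ELOVL6 of its group. The part of the RPL3 level in these differences was not tested.

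Against shRPL3, 6 of 10 members were higher in R161W, where 8.36% of all tested genes were higher and 25.2% were called in either direction: SCD (0.92 ± 0.08), FADS2 (0.86 ± 0.14), FASN (0.71 ± 0.22), FADS1 (0.62 ± 0.09), FADS3 (0.60 ± 0.10) and ACSL3 (0.45 ± 0.14). ACLY (-0.01 ± 0.10, adjusted p = 0.96), ACACA (-0.09 ± 0.17, adjusted p = 0.748), ELOVL5 (0.03 ± 0.07, adjusted p = 0.79) and ELOVL6 did not pass. Within kinds the count was again 6 higher, beside 14.3% of all tested genes. Compared with shScramble, 9 of 10 members were still lower in R161W (16.3% of all tested genes were lower, 23.8% called in either direction), although RPL3 itself did not pass (-0.15 ± 0.18, adjusted p = 0.583). SCD was lower by -1.57 ± 0.08 and FADS2 by -1.34 ± 0.14. Within kinds 9 were lower too, beside 20.4% of all tested genes. FADS3 was the exception, at 0.12 ± 0.10 (adjusted p = 0.419), and was called higher when the second kind of library was left out. Rescaling to a median ratio left 7 members lower, without ELOVL6 (adjusted p = 0.0573) and ACSL3 (adjusted p = 0.101).

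T189M, next after R161W in RPL3, lay close to the hairpin alone. SCD was at 98.0, 93.8 and 108 TPM, FADS2 at 48.8, 47.5 and 58.2 TPM and FADS1 at 57.4, 55.8 and 64.5 TPM. These 3 were higher than in RPL3L-WT, by 0.75 ± 0.08 (adjusted p = 2.12e-05), 0.70 ± 0.14 (adjusted p = 0.00777) and 0.37 ± 0.09 (adjusted p = 0.0349), and no other member passed. That is 3 of 10 higher where 1.39% of all tested genes were higher and 1.80% were called in either direction, and 5 of 10 within kinds, where 7.51% were higher. Without RPL3L-WT replicate 1 or 2, or with the first kind of library alone, 1 member passed. Against shRPL3, SCD alone passed, lower by -0.32 ± 0.08 (adjusted p = 0.00554), in a comparison with 25.5% of all tested genes lower and 33.9% called in either direction. After median-ratio rescaling SCD no longer passed (-0.16, adjusted p = 0.051) and FADS3 was the member called, higher by 0.36 (adjusted p = 0.00235). Within kinds, FADS3 (0.34 ± 0.09) and ACLY (0.16 ± 0.05) were higher and SCD and ELOVL5 (-0.23 ± 0.05) were lower, beside 10.8% and 18.6% of all tested genes. Without T189M replicate 3, 2 members passed.

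Between P291L and RPL3L-WT, 0 of 10 members passed in limma, with or without the kind term, while 2.75% of all tested genes were called without it. At an unadjusted p under 0.05, 2 were higher and 1 was lower, but the share of all tested genes under that rule was not counted. SCD stood at 53.6, 54.7 and 57.0 TPM, inside the RPL3L-WT range, with a difference of -0.10 ± 0.08 (adjusted p = 0.422). Without RPL3L-WT replicate 3, the library of the first kind, 5 members passed, 4 higher and 1 lower. In that fit RPL3L-WT held only libraries of the second kind and P291L only libraries of the first. Group and library kind could not be told apart there, and the share of all tested genes called is not given here. Against shRPL3, 4 members were lower in P291L (15.0% of all tested genes lower, 19.6% called): SCD (-1.17 ± 0.08), FADS2 (-0.71 ± 0.14), ELOVL5 (-0.38 ± 0.07) and FADS1 (-0.28 ± 0.09). Within kinds 6 were lower, adding ACACA and ACSL3, and FADS3 was higher (0.22 ± 0.08, adjusted p = 0.0424), beside 27.3% of all tested genes lower and 8.52% higher. Both groups hold only libraries of the first kind, so the differences themselves were the same in both fits. Median-ratio rescaling gave 2 higher, FADS3 (0.34) and ACLY (0.21), and 2 lower, since FADS1 and ELOVL5 were lost.

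G27D held less SCD than RPL3L-WT, at 33.3, 36.3 and 37.5 TPM, with a difference of -0.71 ± 0.08 (adjusted p = 1.35e-05). SCD was the member that passed of 10, where 1.77% of all tested genes were lower and 3.32% called. Within kinds 6 were lower, SCD, FADS2 (-0.33 ± 0.10), ELOVL6 (-0.54 ± 0.16), ACSL3, ELOVL5 and ACLY, beside 6.02% of all tested genes, and with the first kind alone 5 were lower. Without RPL3L-WT replicate 3, or without G27D replicate 3, 3 members were lower. Against shRPL3, 5 members were lower in G27D (15.0% of all tested genes lower, 17.4% called), led by SCD (-1.78 ± 0.08), FADS2 (-1.15 ± 0.14) and FADS1 (-0.57 ± 0.09). The others were ELOVL5 and ACSL3, both lost after median-ratio rescaling, which left 3. Within kinds 7 were lower, beside 20.5% of all tested genes.

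The pair of D308 changes gave the lowest levels of most members. In D308N, SCD stood at 18.8, 16.5 and 17.5 TPM and FADS2 at 14.9, 16.8 and 16.8 TPM, below every library of every other group. FADS1 was at 37.8, 35.3 and 36.5 TPM and ACSL3 at 31.7, 29.3 and 30.3 TPM. Compared with RPL3L-WT, 7 of 10 members were lower (9.48% of all tested genes lower, 33.2% called in either direction, most of them higher). SCD was lower by -1.69 ± 0.08 (adjusted p = 1.57e-12), FADS2 by -0.90 ± 0.14, ACSL3 by -0.89 ± 0.14, ELOVL5 by -0.60 ± 0.07, FADS3 by -0.52 ± 0.10, ELOVL6 by -0.40 ± 0.15 (adjusted p = 0.0481) and FADS1 by -0.31 ± 0.09. The members' median was -0.46 where that of all genes was 0.13. Within kinds 8 were lower, with ACLY and ACACA added and ELOVL6 lost (adjusted p = 0.0785), beside 12.8% of all tested genes. FASN did not follow: at 53.6, 55.1 and 68.9 TPM it overlapped the RPL3L-WT range, with a difference of 0.31 ± 0.22 (adjusted p = 0.277). Compared with the hairpin alone, 7 members were lower in D308N (12.4% of all tested genes lower, 18.1% called), SCD by -2.76 ± 0.08 (adjusted p = 8.87e-17) and FADS2 by -1.84 ± 0.14, and again FASN did not pass (-0.09 ± 0.22, adjusted p = 0.835). Within kinds ACLY was the 8th, beside 22.2% of all tested genes.

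D308V came next. SCD was at 25.3, 24.8 and 26.9 TPM, FADS2 at 22.1, 20.9 and 24.1 TPM and FADS3 at 41.6, 43.1 and 37.2 TPM. Compared with RPL3L-WT, 5 members were lower (9.03% of all tested genes lower, 30.6% called): SCD (-1.17 ± 0.08), ACSL3 (-0.80 ± 0.14), FADS3 (-0.58 ± 0.10), ELOVL5 (-0.48 ± 0.07) and FADS2 (-0.46 ± 0.14). Within kinds FADS1 and ACLY were added, 7 in all, beside 12.7% of all tested genes. Compared with shRPL3, 6 members were lower (11.1% of all tested genes lower, 16.3% called), with SCD at -2.24 ± 0.08 and FADS2 at -1.40 ± 0.14. Within kinds 8 were lower, beside 22.4%. Set directly against each other, D308N held less SCD than D308V by -0.52 ± 0.08 (adjusted p = 0.000866), the member called of 10 where 0.866% of all tested genes were lower and 1.64% called. FADS2 was next at -0.44 ± 0.14, short of the threshold (adjusted p = 0.107) and past it with the kind term (adjusted p = 0.00505), which made 2 members lower beside 4.19% of all tested genes. All 6 libraries of this pair are of the first kind. RPL3 was higher in every D308N library than in every D308V library, at 0.29 ± 0.18 (adjusted p = 0.603), and passed with the kind term (adjusted p = 1.08e-05).

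R343W had the lowest FASN. It stood at 36.8, 35.0 and 36.8 TPM, below every RPL3L-WT library, although the difference did not pass (-0.37 ± 0.22, adjusted p = 0.193; after median-ratio rescaling -0.52, adjusted p = 0.0473), and it was lower than in shRPL3 by -0.77 ± 0.22 (adjusted p = 0.0141). SCD was at 39.6, 35.8 and 37.7 TPM. Compared with RPL3L-WT, SCD (-0.64 ± 0.08), ACSL3 (-0.59 ± 0.14) and ELOVL5 (-0.21 ± 0.07) were lower and FADS1 was higher (0.30 ± 0.09, adjusted p = 0.017), 3 of 10 lower and 1 higher where 9.19% and 24.5% of all tested genes were, and 33.7% were called in all. Within kinds FADS1 (0.14 ± 0.07, adjusted p = 0.129) and ELOVL5 (-0.08 ± 0.05, adjusted p = 0.257) did not pass and 5 members were lower, SCD, ACSL3, ACACA, ACLY and FADS3, beside 12.6% of all tested genes. Median-ratio rescaling also gave 5 lower, but not the same 5: SCD, ACSL3, FADS3, FASN and ELOVL5 (-0.36, adjusted p = 0.0130). After that rescaling ACACA (adjusted p = 0.394), ACLY (adjusted p = 0.0716) and FADS1 (adjusted p = 0.0829) did not pass. Without RPL3L-WT replicate 1 or 2, or R343W replicate 3, 2 members passed. Compared with shRPL3, 6 members were lower (12.4% of all tested genes lower, 19.7% called): SCD (-1.70 ± 0.08), FADS2 (-0.81 ± 0.14), FASN, ACSL3 (-0.64 ± 0.14), ACACA (-0.50 ± 0.17) and ELOVL5 (-0.40 ± 0.07). Within kinds 8 were lower, beside 22.8%. All comparisons of a variant with RPL3L-WT share the 3 RPL3L-WT libraries, and all comparisons with shRPL3 share the 3 shRPL3 libraries, so the values of different variants are given side by side and are not independent.

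**Figure D2:**
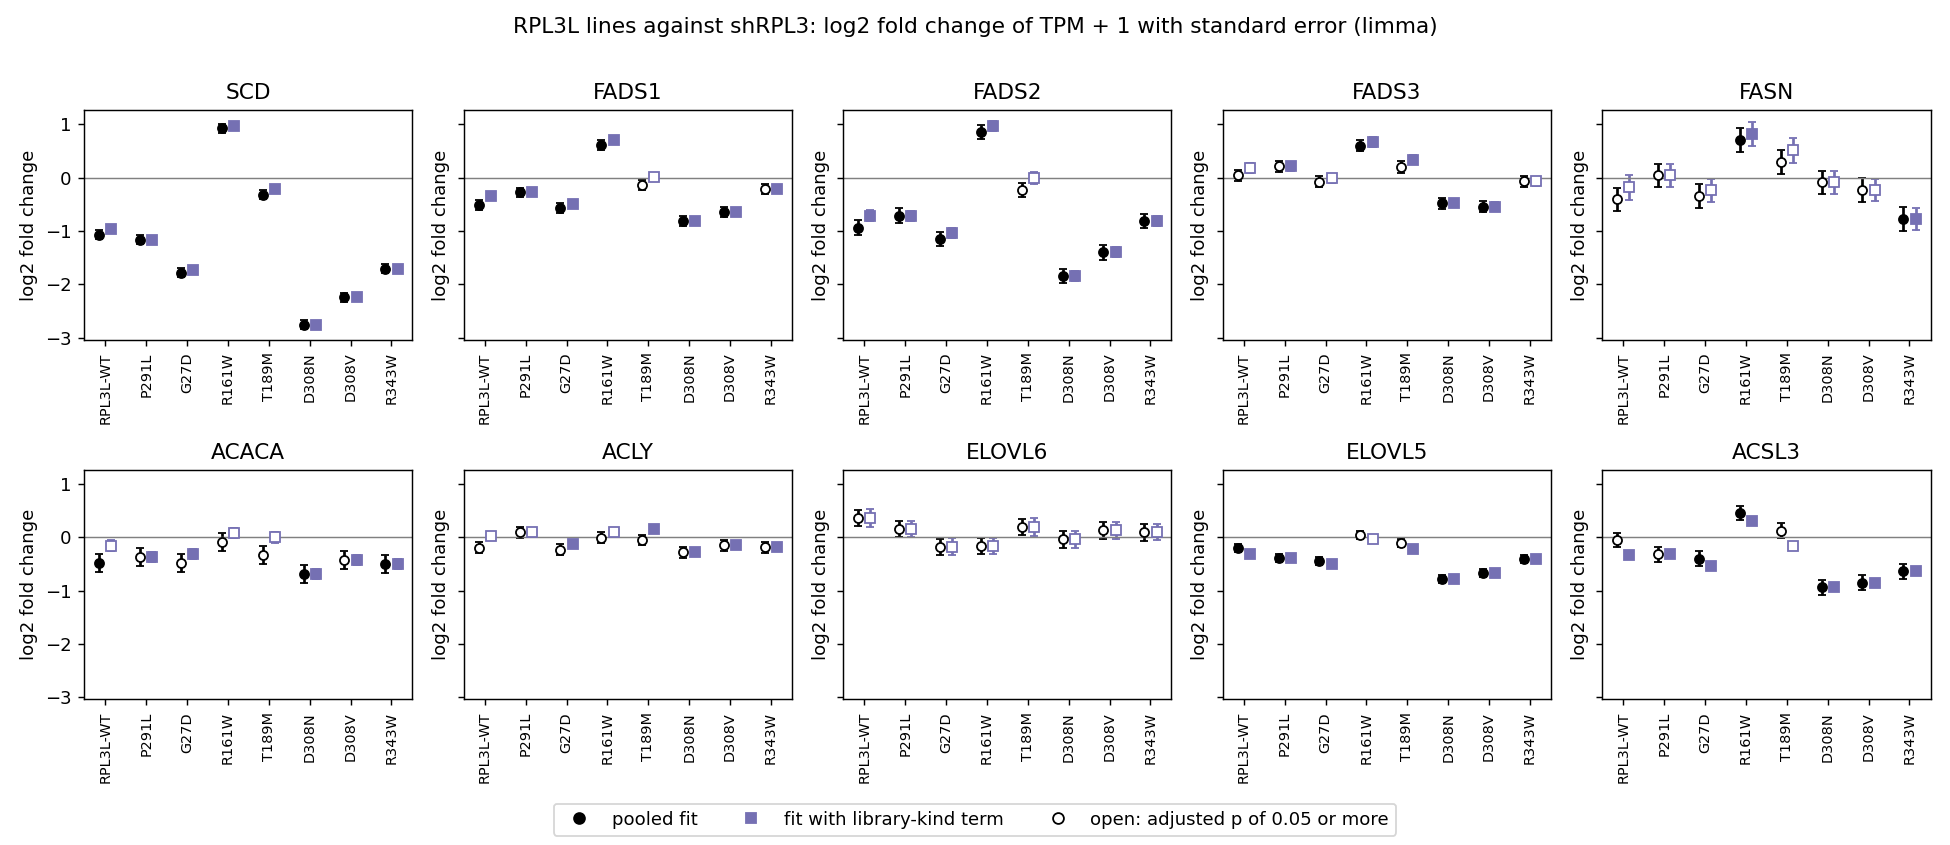
Log2 fold change of TPM + 1 against shRPL3 (y axis, limma, bars are standard errors) for each gene in the 8 RPL3L lines (x axis), without (circles) and with (squares) the library-kind term; open symbols did not pass. SCD and FADS2 spread widest, from 0.92 and 0.86 in R161W to -2.76 and -1.84 in D308N, while ACLY lies between 0.09 in P291L and -0.28 in D308N without the term.

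Across the 10 groups, SCD had the widest range of the members, 40.1-fold between the means of 707 ± 12.9 TPM in shScramble and 17.6 ± 1.15 TPM in D308N. Its order was shScramble, R161W (238 ± 21.3), shRPL3 (125 ± 4.25), T189M (100.1 ± 7.55), RPL3L-WT (59.6 ± 8.76), P291L (55.1 ± 1.73), R343W (37.7 ± 1.91), G27D (35.7 ± 2.14), D308V (25.7 ± 1.09) and D308N. Neighbours in that order overlapped in 2 places, RPL3L-WT with P291L and R343W with G27D. FADS2 followed with a 17.3-fold range, then FASN (5.97-fold), FADS1 (5.67-fold), ACSL3 (3.79-fold), ACACA (2.93-fold), ELOVL5 (2.51-fold), FADS3 (2.25-fold), ACLY (1.92-fold) and ELOVL6 (1.50-fold). For 7 of the 10, D308N was the lowest group and shScramble the highest. The exceptions were FASN, lowest in R343W, FADS3, highest in R161W and lowest in D308V, and ELOVL6, highest in RPL3L-WT (15.6 ± 1.25 TPM) and lowest in G27D (10.4 ± 0.988 TPM). For 8 members every library of the other 9 groups lay below every shScramble library, and for FADS3 this held in 8 groups and for ELOVL6 in 4. For shRPL3 alone 27.7% of all tested genes lay below in this way, and the share for all 9 groups was not counted.

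FADS2 ran from 279.7 ± 8.02 TPM in shScramble through R161W (111 ± 17.9), shRPL3 (60.5 ± 4.60), T189M (51.5 ± 5.85), P291L (36.6 ± 3.37), R343W (34.1 ± 2.04), RPL3L-WT (31.9 ± 9.32), G27D (26.7 ± 1.80) and D308V (22.3 ± 1.61) to D308N (16.2 ± 1.11). The overlapping neighbours were shRPL3 with T189M and the run from P291L to G27D. FADS1 kept shScramble (207 ± 10.7), R161W (101 ± 10.2) and D308N (36.6 ± 1.25) apart from their neighbours, and the 7 groups between R161W and D308N, from 65.2 ± 1.72 TPM in shRPL3 to 41.2 ± 1.54 TPM in D308V, overlapped each with the next. FADS3 was led by R161W (91.4 ± 13.9) and shScramble (83.4 ± 8.65), which overlapped. D308N (42.6 ± 4.16) and D308V (40.6 ± 3.06) lay below its other 8 groups and overlapped each other. The 3 genes of the cluster thus had the same pair of groups at the top and the same pair at the bottom, though over ranges that differed several-fold.

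Among the chain builders, FASN was at 216 ± 26.8 TPM in shScramble, 103 ± 11.7 in R161W and 78.4 ± 16.4 in T189M, each apart from the one before. The 7 groups from T189M through P291L (65.5 ± 13.4) to RPL3L-WT (48.5 ± 15.0) overlapped each with the next, and R343W (36.2 ± 1.02) lay below them. ACACA separated shScramble (34.9 ± 2.57) from the rest. From shRPL3 at 19.8 ± 0.297 TPM down to D308N at 11.9 ± 0.519 TPM each group overlapped the next. Groups further apart in that order could still separate, as shRPL3 (lowest 19.4 TPM) did from RPL3L-WT (highest 18.3 TPM). ACLY likewise separated shScramble (255 ± 10.6) from the rest. P291L (173 ± 5.03) came next, apart from shRPL3 but overlapping R161W, T189M and RPL3L-WT, and the other 8 groups, from 162 ± 2.87 TPM in shRPL3 to 133 ± 4.28 TPM in D308N, overlapped in sequence.

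ELOVL5 went from 215 ± 6.84 TPM in shScramble to an overlapping run of R161W (152 ± 11.7), shRPL3 (149 ± 7.07), T189M (139 ± 12.6) and RPL3L-WT (129.7 ± 8.73). A lower run of P291L (114 ± 4.36), R343W (112 ± 7.03) and G27D (109 ± 9.60) followed, and D308V (92.7 ± 2.40) and D308N (85.4 ± 3.76) each stood alone at the bottom. ACSL3 had the same grouping in outline, with R161W at 82.9 ± 19.3 TPM, T189M at 65.3 ± 10.6, shRPL3 at 59.3 ± 1.61 and RPL3L-WT at 57.2 ± 4.44, and D308V (32.3 ± 1.60) overlapping D308N (30.4 ± 1.23). In R161W the ACSL3 values were 105, 73.7 and 70.0 TPM, with the library of the second kind the highest, and in G27D 37.3, 40.2 and 58.9 TPM, again with the library of that kind the highest. All neighbours in the order of ELOVL6 overlapped.

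**Figure D3:**
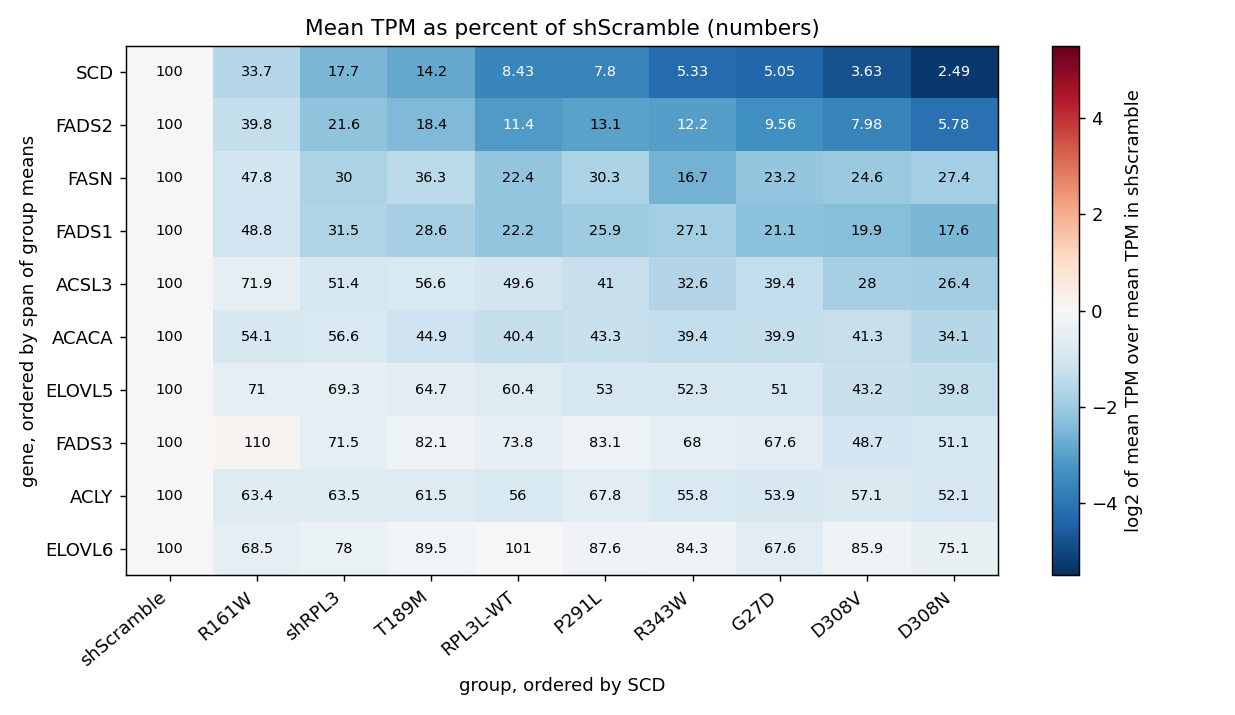
Mean TPM of each gene (rows, widest range first) in each group (columns, ordered by SCD) as percent of the shScramble mean, coloured by its log2. SCD falls to 2.49% and FADS2 to 5.78% in D308N, while ACLY does not go under 52.1% in any group.

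The mix of transcripts for these enzymes changed along with their levels. The FADS2 to FADS1 ratio of TPM within a library was 1.42, 1.37 and 1.27 in shScramble, 0.981, 0.847 and 0.955 in shRPL3, and 0.394, 0.476 and 0.460 in D308N. FADS2 outweighed FADS1 in every shScramble and R161W library and in no library of the other 8 groups. The SCD to FASN ratio averaged 3.30 ± 0.379 (SD, n = 3) in shScramble, 2.32 ± 0.252 in R161W, 2.05 ± 0.544 in shRPL3, 1.27 ± 0.228 in RPL3L-WT and 0.302 ± 0.0486 in D308N. FADS3, a minor member in control cells, moved the other way relative to FADS2: the FADS3 to FADS2 ratio was 0.298 ± 0.0225 in shScramble, 0.987 ± 0.0867 in shRPL3 and 2.63 ± 0.138 in D308N. SCD made up 3.96 ± 0.252% of the members' sum in D308N and 22.2 ± 0.729% in R161W, and that sum was 445 ± 11.6 and 1072 ± 63.2 TPM. TPM are per transcript length, so these ratios compare transcript numbers as far as the lengths used were right.

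**Figure D4:**
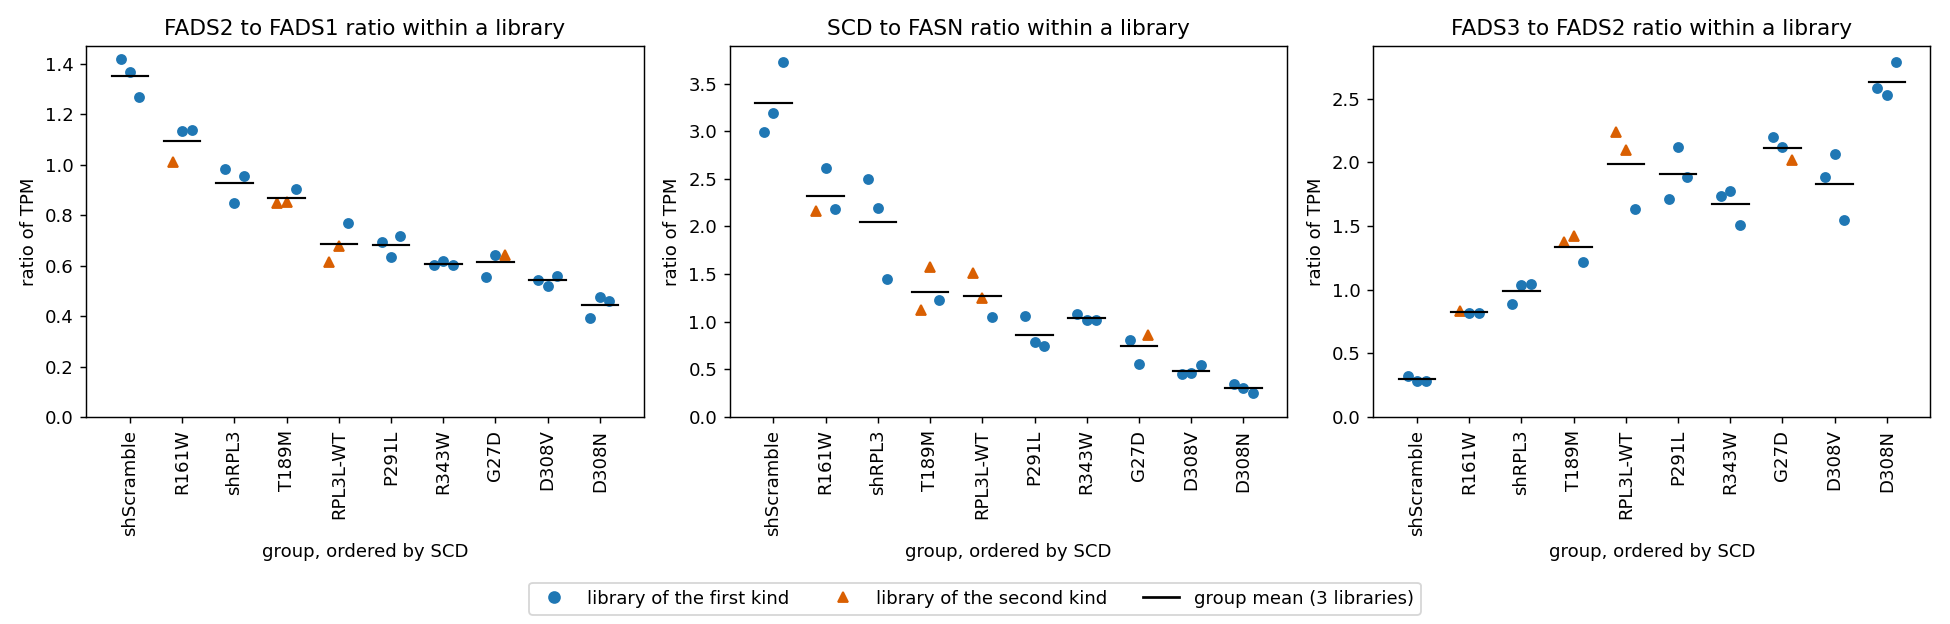
Ratios of TPM within each library (points; circles first kind, triangles second kind) with group means (bars), groups ordered by SCD. FADS2 to FADS1 goes from a mean of 1.35 to 0.443 and SCD to FASN from 3.30 to 0.302 between shScramble and D308N, while FADS3 to FADS2 goes from 0.298 to 2.63.

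As a description over the 10 group means, which share libraries and scaling, the pairs most alike on the log2(TPM + 1) scale were FADS2 with SCD (Pearson r = 0.989) and FADS2 with FADS1 (0.987). ELOVL6 was least like the rest, with r from 0.128 with FADS3 to 0.465 with ACLY. The tested genes outside the set whose group means were most like the members' mean profile were IDI1 (0.997), ACAT2 (0.992), HMGCS1 (0.992), FLOT2 (0.992) and IDH1 (0.991). IDI1, ACAT2 and HMGCS1 encode enzymes of sterol synthesis, and IDH1 makes cytosolic NADPH. HMGCS1 averaged 465 ± 11.0 TPM in shScramble, 90.0 ± 4.06 in shRPL3, 141 ± 12.4 in R161W and 30.4 ± 1.80 in D308N.

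Other genes of the pathway were read from lists beside the members. Of 14 tested regulators of lipogenic transcription, 5 were lower in shRPL3 than in shScramble, with a list median of -0.19, beside 18.0% of all tested genes lower. INSIG1, the SREBP retention protein and itself an SREBP target, averaged 497 ± 4.24 TPM in shScramble and 97.0 ± 2.64 TPM in shRPL3 and fell by 2.35 ± 0.11 (adjusted p = 1.23e-13). SREBF2, which encodes the SREBP of sterol genes, fell by 1.39 ± 0.15, and SREBF1, which encodes that of lipogenic genes, by 0.64 ± 0.15 (adjusted p = 0.00163). PPARA, a receptor for fatty acids, fell by 0.71 ± 0.20. In R161W against shRPL3, SREBF1 (0.81 ± 0.15), SREBF2 (0.54 ± 0.15) and INSIG1 (0.49 ± 0.11) were all higher, and in D308N all 3 were lower (-0.82 ± 0.15, -1.09 ± 0.15 and -1.35 ± 0.11). SREBF1 averaged 66.5 ± 6.21 TPM in R161W and was lowest in R343W (13.8 ± 1.97 TPM) and D308V (13.9 ± 2.12 TPM).

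Of 12 other tested genes for acetyl-CoA, malonyl-CoA and NADPH supply, 6 were lower and 1 higher in shRPL3 than in shScramble (list median -0.58), where 18.0% of all tested genes were lower and 17.2% higher, shares that also stand behind the counts of the next 4 lists. ACSS2, which makes acetyl-CoA from acetate, fell by 2.03 ± 0.15, and the NADPH-making enzymes IDH1, PGD and ME1 fell by 1.37 ± 0.11, 1.11 ± 0.27 and 1.07 ± 0.11. PGD, of the pentose phosphate pathway, then rose in RPL3L-WT over shRPL3 (0.87 ± 0.27, adjusted p = 0.0159; within kinds 0.25 ± 0.07), at 174 ± 45.2 TPM, while SCD, FADS1 and FADS2 were lower. Of 14 other desaturase, elongase and elongation cycle genes, 7 were lower (median -0.28), among them CYB5A (-0.76 ± 0.07) and CYB5R3 (-0.64 ± 0.11), which pass electrons to the desaturases. Both were then higher in RPL3L-WT than in shRPL3, CYB5R3 by 0.51 ± 0.11 and CYB5A by 0.19 ± 0.07, while SCD, FADS1 and FADS2 were lower. Of 8 other acyl-CoA synthetases 3 were lower, led by ACSF2 (-0.61 ± 0.10).

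Downstream, 10 of 15 glycerolipid assembly genes were lower and 1 was higher in shRPL3 than in shScramble (median -0.52). PNPLA3, a lipid droplet protein, fell by 2.01 ± 0.22, and LPIN1, a phosphatidate phosphatase, by 1.27 ± 0.13. GPAM, the mitochondrial acyltransferase that starts glycerolipid synthesis, was the gene that rose (0.58 ± 0.09). It then fell in RPL3L-WT against shRPL3 by 0.53 ± 0.09. Of 20 tested fatty acid oxidation genes, 9 were lower and 2 higher (median -0.19), with HADH of beta-oxidation at -0.73 ± 0.14 and CPT1B, the muscle form of the carnitine transferase, at 0.68 ± 0.20 (adjusted p = 0.00833). CPT1B was lower again in RPL3L-WT than in shRPL3 (-0.67 ± 0.20, adjusted p = 0.0113) but did not pass within kinds (adjusted p = 0.0975).

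For the supply, regulator, glycerolipid and oxidation lists, counts against the hairpin alone are given for RPL3L-WT, R161W and D308N, and not for the other variants. In RPL3L-WT, 6 of the 12 supply genes were lower and 1 higher, 5 of the 14 regulators were lower, 5 of the 15 glycerolipid genes were lower, and 7 of the 20 oxidation genes were lower and 4 higher, beside 30.2% of all tested genes lower and 5.77% higher. Within kinds these counts of lower genes were 3, 2, 3 and 1, beside 20.1% of all tested genes. INSIG1 (-0.68 ± 0.11, adjusted p = 9.09e-05) and SREBF1 (-0.47 ± 0.15, adjusted p = 0.0177) passed with and without the kind term. ACSL1, another long-chain acyl-CoA synthetase, was lower too (-0.81 ± 0.16, adjusted p = 0.000584). In R161W, 3 supply genes and 4 regulators were higher and none of either list was lower, by limma without the kind term, 1 of 15 glycerolipid genes was lower and 3 of 20 oxidation genes were higher, beside 8.36% of all tested genes higher and 16.9% lower. Within kinds 6 supply genes, 5 regulators, 6 glycerolipid genes and 6 oxidation genes were higher, beside 14.3% of all tested genes. In that fit 1 regulator and 1 glycerolipid gene were lower, beside 21.8% of all tested genes. Of the named genes, ACSS2 was higher at 0.66 ± 0.15 and IDH1 at 0.45 ± 0.11. In D308N, 4 supply genes, 4 regulators, 7 glycerolipid genes and 8 oxidation genes were lower, beside 12.4% of all tested genes lower. IDH1 was at -1.10 ± 0.11, LPIN1 at -0.61 ± 0.13 and HADH at -0.79 ± 0.14. There 2 oxidation genes were higher, where 18.1% of all tested genes were called in either direction. ELOVL2, an elongase of long polyunsaturated chains, was lower than in shRPL3 in RPL3L-WT (-0.40 ± 0.07), in R161W (-0.57 ± 0.07) and in D308N (-0.66 ± 0.07), so that in R161W it went against SCD, FADS1 and FADS2.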

How the data were processed

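PolyA RNA libraries were made with TruSeq chemistry and a KAPA HiFi final PCR, per the labels' protocols. Bcl2fastq 2.19, bedtools, Bowtie and kallisto are listed, with no roles, per the submitters' processing notes. For annotation, build and strand, the setting used is not given in the sources used here. TPM per gene are what the authors deposited, a unit scaled for transcript length and library total that keeps no read depth. Of 60612 entries, 6 construct sequences were left out.

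From these, log2(TPM + 1) was fitted with limma 3.58.1 in R 4.3.3 (moderated with trend and robust settings) in 1 model over the 10 groups, on 14426 genes whose TPM averaged 1 or more, two-sided, with Benjamini-Hochberg adjustment over all of them in each of 19 comparisons and a threshold of 0.05. Fold changes understate those of genes near the pseudocount of 1. Errors beside fold changes are standard errors and those beside TPM are SD of 3 libraries. A second fit held the library kind, found from 333 pseudogenes, as a term. Alternatives were a pseudocount of 0.1, no filter, median-ratio scaling, a replicate block, the compared groups alone, leaving out each library, and, chosen after seeing the data, the 24 libraries of the first kind. The fit was tested on simulated data.

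The members and all gene lists were chosen with earlier results of these data known. All 10 members were tested in every comparison and each is named in shRPL3 against shScramble, but some go unnamed in other comparisons. From each other list the named genes are up to 4 of the largest called changes in shRPL3 against shScramble and in RPL3L-WT against shRPL3. SREBF1, SREBF2 and INSIG1 are always included. The self-made summaries and figures used Python 3.11.15 with numpy 2.4.6, pandas 2.3.3 and matplotlib 3.10.9.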

Additional observations from a re-analysis of the deposited data

Results flagged for a closer look

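For 7 members, every library of a variant group lay above all shRPL3 libraries while every library of another variant group lay below them, and the difference between those effects was not tested. The share of all tested genes that meet this rule was not counted, so it is not known whether 7 members are many. The distance between the log2 differences from shRPL3 was 3.68 for SCD, 2.70 for FADS2, 1.44 for FADS1 and 1.39 for ACSL3, each with R161W above and D308N below. For FADS3 it was 1.14, between R161W above and D308V below, for FASN 1.48, between R161W above and R343W below, and for ACLY 0.38, between P291L above and D308N below. FADS3 had 3 groups wholly above shRPL3 (P291L, R161W and T189M) and 2 wholly below (D308N and D308V), whereas SCD had R161W above and 7 groups below. SCD also differed between the 2 changes at the same residue, with D308N lower than D308V by -0.52 on the log2 scale (limma adjusted p = 0.000866), lower in every D308N library than in every D308V library.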

How the results depend on the processing

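With a pseudocount of 0.1, all 190 member calls kept their direction and side of the threshold. Counts of members called that moved by over 1.5 times follow, without the share of all tested genes called in each setting. For RPL3L-WT against shRPL3, 3 passed with no filter and 2 with the 2 groups alone (fewer libraries behind the spread). Median-ratio scaling gave 2 for G27D against RPL3L-WT, 3 for G27D against shRPL3, 2 for D308N against D308V and, for T189M against shRPL3, 1 higher in place of 1 lower. The library-kind term gave 6 for G27D and 5 for T189M against RPL3L-WT, 7 for P291L and 4 for T189M against shRPL3, and 2 for D308N against D308V. Libraries of the first kind alone gave 1, 5 and 1 for P291L, G27D and T189M against RPL3L-WT, 7 for P291L against shRPL3 and 2 for D308N against D308V. Single genes that changed sign and were called before or after the change were ELOVL5 in RPL3L-WT against shRPL3 (0.024 after scaling), ACLY against RPL3L-WT in D308V (-0.17 within kinds, -0.23 in the first kind) and R343W (-0.20 and -0.26), FADS2 in R343W against RPL3L-WT (-0.32 in the first kind) and ACLY in T189M against shRPL3 (0.16 within kinds). The causes were not tested.

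Leaving out each library in turn gave 3 to 6 for RPL3L-WT against shRPL3, 0 to 5 for P291L, 1 to 3 for G27D, 1 to 4 for T189M and 2 to 5 for R343W against RPL3L-WT, and 1 to 2 for T189M against shRPL3. The low counts of 3 came without shRPL3 replicate 2 or 3 or RPL3L-WT replicate 2, those of 1 for T189M without RPL3L-WT replicate 1 or 2, and those of 2 for R343W without RPL3L-WT replicate 1 or 2 or R343W replicate 3. Without RPL3L-WT replicate 3, RPL3L-WT held only libraries of the second kind. Against groups of the first kind, group and library kind could not be told apart in that fit. For shRPL3 against shScramble, 9 or 10 passed throughout.

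The labels pair no libraries by number, and same-numbered libraries deviated together by over 0.1 in every pair in 1 of 19 comparisons, T189M against RPL3L-WT, whose numbers also match in library kind (correlations from -0.539 to 0.505 over all). With a replicate block, 9 members passed in shRPL3 against shScramble and 187 of 190 calls were the same. No count moved by over 1.5 times. TPM carry no depth, so counting error could not be set beside these values.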
